A study of Mus musculus with 8 samples.

Results

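The genes described here encode the machinery that brings new secretory proteins into the endoplasmic reticulum, folds them, removes those that fail to fold and senses the load. They are 40 listed mouse genes, all of which were found among the 29621 genes with a transcript in the files, and 39 of them were among the 14267 genes tested. Membership followed a list of gene symbols, which was drawn up with earlier results of these data known, and its rule applies no measured value. The genes were grouped by step into 8 of translocation, 8 chaperones and co-chaperones, 2 lectin chaperones, 10 of disulfide bond formation, 9 of degradation and 3 sensors.

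Levels were measured by RNA sequencing of whole pancreas in 4 KPC-OG and 4 KPC libraries from C57BL/6 mice at postnatal day 42. KPC-OG mice carried p48-Cre, an oncogenic allele activated by Cre, floxed Trp53 and an OG allele at the R26 locus that also needs Cre. KPC mice carried all of these except the OG allele, so the Trp53 deletion was common to both genotypes. The p48 (Ptf1a) promoter drives Cre in pancreatic progenitors, so recombination is expected in the epithelium of the organ and not in its stroma or blood cells. The labels do not spell out OG, and OG itself was not analysed here. They also do not say whether the libraries of a genotype came from separate mice, and p-values then reflect library-to-library spread, which may be technical.

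The pancreatic acinar cell makes digestive enzymes in very large amounts and has one of the most extensive endoplasmic reticula of the body. Proteins enter through the Sec61 channel, fold with the help of chaperones such as BiP and of disulfide isomerases, and leave for degradation when folding fails. The unfolded protein response, run by the sensors IRE1, PERK and ATF6, adjusts this machinery to the load.

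The libraries held 13671606 to 18292115 estimated reads in KPC-OG and 7373286 to 11292570 in KPC. Their composition differed: reads assigned to the single gene Lars2 made up 3.73% to 7.11% of gene-level reads in KPC-OG and 20.8% to 30.0% in KPC. TMM scaling, which sets libraries to a common level for the typical gene, gave factors of 1.14 to 2.28 in KPC-OG and 0.483 to 0.653 in KPC. A fold change below is a change relative to the typical gene, and CPM are TMM-scaled counts unless another scale is named. The genotypes also differed in cell type markers. Of the acinar enzymes 17 of 21 were lower in KPC-OG (median log2 fold change -2.09), as were 10 of 10 acinar regulators and granule proteins, while 10 of 12 duct, 10 of 11 fibroblast and 9 of 10 macrophage markers were higher. Among all tested genes 16.6% were lower and 17.4% higher. By TPM, 6 acinar enzymes lay below KPC in all 4 KPC-OG libraries and 15 overlapped. Of the acinar regulators and granule proteins 1 lay below, 1 above and 8 overlapped. By TPM 80.2% of all tested genes lay above and 0.792% below. Summed macrophage markers ran from 770 to 1077 CPM in KPC-OG and from 232 to 449 CPM in KPC. Of the plasma cell markers 1 of 7 tested, Sdc1, was higher, and Mzb1 was at 0 in 2 KPC libraries, Tnfrsf17 in 1 KPC-OG and 2 KPC libraries, and Cd79a in 1 KPC library. Few islet markers (Pcsk1 lower, Ppy and Chgb higher, of 12) and endothelial markers (Vwf higher, of 7) passed, and Neurod1 was at 0 in 1 KPC library. In bulk tissue, fewer cells of a type and less RNA per cell cannot be told apart, and the part that cell makeup had in the results below was not tested.

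Relative to the typical gene, the machinery was lower in KPC-OG pancreas. Of the 39 tested genes 27 were lower in KPC-OG, none was higher and 12 did not pass (edgeR quasi-likelihood test, Benjamini-Hochberg adjustment over all tested genes, adjusted p under 0.05). Among all tested genes 16.6% were lower and 17.4% were higher. At an unadjusted p under 0.05, 29 of the 39 were lower and 1, Pdia3, was higher; DESeq2 also called 1 higher. Without KPC-OG library 3, which lay nearest to KPC for several genes below, 27 were lower and 1 was higher. The median log2 fold change was -0.86, against 0.09 over all tested genes, and the values ran from -2.56 for Ero1lb to 0.52 for Pdia3. In 26 of the 39 genes all 4 KPC-OG libraries lay below all 4 KPC libraries and in none did they lie above. Among all tested genes 17.0% lay below and 17.6% above without overlap.

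**Figure D1:**
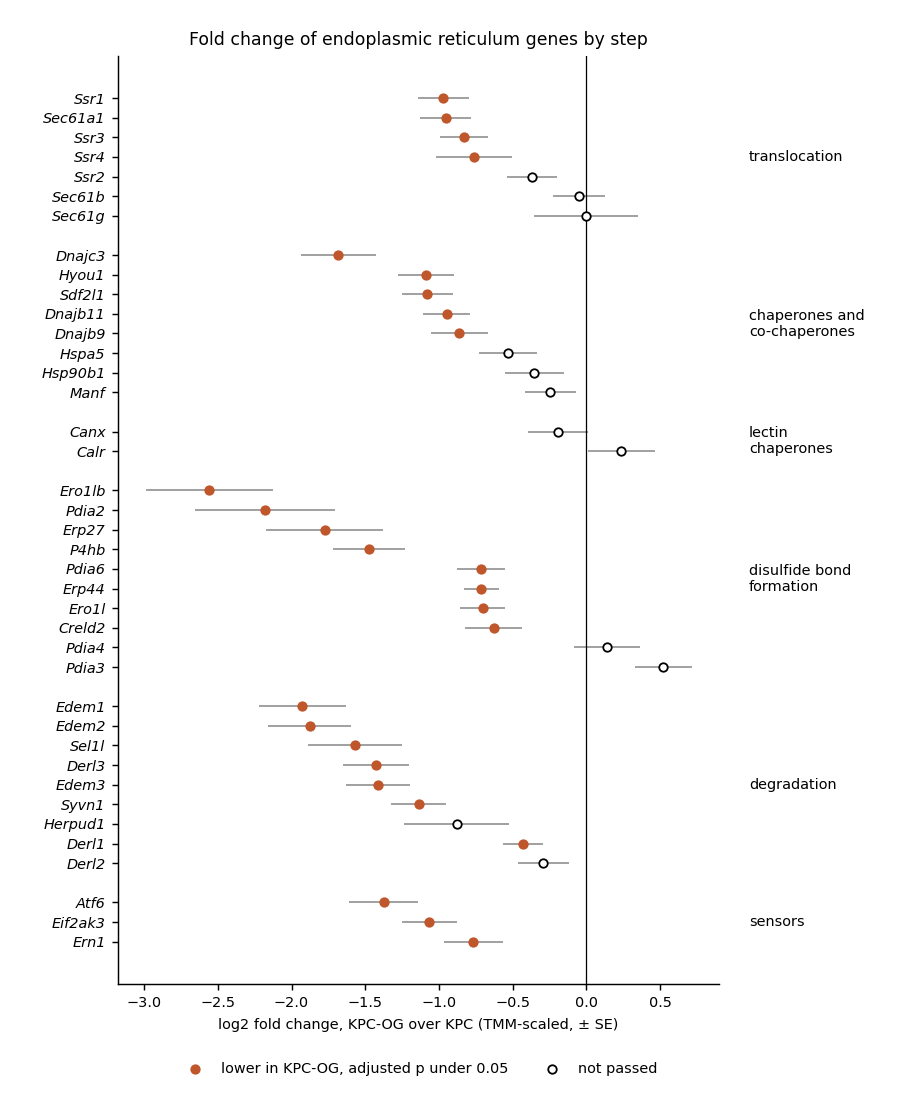
Log2 fold change (x axis, KPC-OG over KPC, TMM-scaled, bars are SE) of the 39 tested genes, grouped by step along the y axis. The 27 filled points passed the adjusted threshold, and all of them lie left of 0.

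The direction depended on the scale. With library sizes alone, which treat the total read count as constant, the median of all tested genes moved up by 1.74 on the log2 scale. On that scale 2 of the 39 genes, Pdia2 and Ero1lb, were lower in KPC-OG and 28 were higher, against 0.694% lower and 91.7% higher among all tested genes. The other 9 did not pass, among them Edem1 (log2 fold change -0.30), Erp27 (-0.22), Edem2 (-0.22), Sel1l (0.05) and Dnajc3 (0.02).

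Genes of translocation move nascent chains through the channel in the membrane. Of 7 tested genes 4 were lower in KPC-OG (median log2 fold change -0.76). Sec61a1, the pore-forming subunit of the channel (GRCm38, chr6:88503579-88518905), had 165, 129, 143 and 115 CPM in KPC-OG libraries 1 to 4, against 322, 245, 237 and 265 CPM in KPC libraries 1 to 4. All KPC-OG libraries lay below all KPC libraries, with a log2 fold change of -0.95 ± 0.17 (SE) and an edgeR adjusted p of 0.00269. Ssr1, which encodes a subunit of the translocon-associated protein complex (chr13:37966605-37994217), had 102, 76.8, 74.9 and 74.8 CPM in KPC-OG, against 194, 131, 147 and 173 CPM in KPC. It fell by 0.97 ± 0.17 on the log2 scale (edgeR adjusted p = 0.00255), with no overlap.

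Ssr4, a subunit of the same complex with the highest TPM of the step averaged over both genotypes (chrX:73787028-73790830), had 70.9, 59.7, 112 and 42.8 CPM in KPC-OG, against 138, 116, 120 and 109 CPM in KPC. KPC-OG library 3 reached the KPC range and the other 3 did not. The log2 fold change was -0.76 ± 0.26 (edgeR adjusted p = 0.0422), and 7 of the 8 fits that left out 1 library no longer passed (see the plot of levels by library). Ssr3, a further subunit of that complex, was also lower (-0.83 ± 0.16). Sec61b and Sec61g, the small subunits of the channel, and Ssr2 had log2 fold changes of -0.05 ± 0.17, -0.00 ± 0.35 and -0.37 ± 0.17 and did not pass. Sec61g lay between 1.35 and 3.98 CPM in all libraries, and its sign changed between fits. Spcs1, a subunit of the signal peptidase complex, was listed at 0 in 7 libraries and at 15.2 estimated reads in KPC-OG library 2, and was not tested.

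Chaperones bind chains as they enter. Of 8 genes 5 were lower in KPC-OG (median log2 fold change -0.90). Hspa5, which encodes BiP, the main Hsp70 chaperone of the compartment and a regulator of all 3 sensors (chr2:34771970-34777547), had 464, 365, 311 and 285 CPM in KPC-OG, against 561, 492, 451 and 553 CPM in KPC. KPC-OG library 1 lay above KPC library 3 and the other 3 lay below every KPC library. Its log2 fold change was -0.53 ± 0.20 and did not pass (edgeR adjusted p = 0.0623). The adjusted p was 0.00665 in DESeq2 and 0.0348 in limma-voom. DESeq2 made more false calls than edgeR on simulated data. Those data were drawn with edgeR's dispersion estimates, so they cannot rank the tools.

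Dnajc3, the co-chaperone p58IPK that works with BiP and also inhibits PERK (chr14:118937976-118981697), had 135, 98.5, 153 and 88.2 CPM in KPC-OG, against 485, 250.2, 351 and 437 CPM in KPC. The highest KPC-OG library was well below the lowest KPC library, and the gene fell by 1.68 ± 0.25 on the log2 scale (edgeR adjusted p = 0.00134). Sdf2l1, a stabiliser of BiP complexes (chr16:17130138-17132383), had 36.6, 28.1, 36.3 and 22.7 CPM in KPC-OG, against 73.0, 63.7, 55.5 and 68.7 CPM in KPC. It fell by 1.08 ± 0.17 (edgeR adjusted p = 0.00162), with no overlap.

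The nucleotide exchange factor Hyou1 (-1.09 ± 0.19), the co-chaperone Dnajb11 (-0.95 ± 0.16) and the co-chaperone Dnajb9 (-0.86 ± 0.20) were also lower. Hsp90b1, which encodes GRP94 (-0.35 ± 0.20), and Manf, a secreted stress-induced protein (-0.24 ± 0.17), did not pass. The ratio of Hspa5 to Dnajc3, taken within each library from TPM and so free of the scaling between libraries, was 7.25, 7.77, 4.24 and 6.66 in KPC-OG, against 2.38, 4.08, 2.71 and 2.65 in KPC. Every KPC-OG library was above every KPC library. The ratios of Hspa5 to Hsp90b1 (0.946 to 1.63 in KPC-OG and 1.33 to 1.69 in KPC) and of Dnajc3 to Dnajb11 (0.734 to 1.15 in KPC-OG and 0.996 to 1.58 in KPC) overlapped.

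The lectin chaperones hold glycoproteins while they fold. Neither passed. Calr, which encodes calreticulin (chr8:84841850-84846934), had 314, 279.8, 162 and 282 CPM in KPC-OG, against 221, 204, 180.4 and 276 CPM in KPC, with library 3 the lowest of the 8 (log2 fold change 0.24 ± 0.23, edgeR adjusted p = 0.451). Canx, which encodes calnexin (chr11:50293961-50325673), had 309.5, 248, 184 and 246 CPM in KPC-OG, against 346, 234, 244 and 307 CPM in KPC (log2 fold change -0.19 ± 0.20, edgeR adjusted p = 0.495). The groups overlapped for both genes. The ratio of Calr to Canx within a library was 1.18 to 1.45 in KPC-OG and 0.913 to 1.16 in KPC, without overlap. As a share of gene-level reads the 2 genes together held 0.0394% to 0.120% in KPC-OG and 0.0226% to 0.0328% in KPC, again without overlap. With Lars2 left out of the total, these shares overlapped. Such shares are not TMM-scaled, and with library sizes alone 91.7% of all tested genes were higher in KPC-OG.

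The promoters of Hspa5, Dnajc3, Calr and Canx hold the letters of the ER stress response element, and these 4 are shown because their levels are given in full above. The element is CCAAT, any 9 bases and CCACG, and is known as a site of NF-Y together with ATF6 or XBP1. It was searched on both strands in RefSeq promoters (GRCm38.p6, 250 bases before to 50 after a gene's start), which were matched for 33 of the 40 genes. The stretches below show it in capitals, 5′ to 3′ on the strand of the gene. Where the match lies on the opposite strand, as for Calr, the capitals read as its reverse complement.
Hspa5: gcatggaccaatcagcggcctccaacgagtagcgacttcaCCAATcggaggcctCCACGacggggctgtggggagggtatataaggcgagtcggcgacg
Dnajc3: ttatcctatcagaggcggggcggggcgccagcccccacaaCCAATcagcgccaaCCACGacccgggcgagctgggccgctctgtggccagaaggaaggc
Calr: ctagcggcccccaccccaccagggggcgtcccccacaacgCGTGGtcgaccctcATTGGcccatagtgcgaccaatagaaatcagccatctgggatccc
Canx: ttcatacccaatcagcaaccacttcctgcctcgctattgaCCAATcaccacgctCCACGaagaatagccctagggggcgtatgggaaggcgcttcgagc
These lie at chr2:34771985-34772083 on the plus strand, chr14:118937787-118937885 on the plus strand, chr8:84847035-84847133 on the minus strand and chr11:50325760-50325858 on the minus strand. The Hspa5 stretch falls inside the extent that GENCODE M21 gives the gene, and the other 3 lie just upstream of theirs.

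The element was present for 10 of the 33 genes, a share of 30.3%, and in 39 of 32851 mouse promoters, a share of 0.119%. The list was drawn up by function and includes stress genes, so these shares are a description and were not tested. The 10 genes were Hspa5, Hsp90b1, Dnajc3, Calr, Canx, Pdia6, Creld2, Ero1lb, Syvn1 and Derl3. Their log2 fold changes spanned -2.56 to 0.24, with 6 lower in KPC-OG and 4 that did not pass (median -0.67). Of the 22 tested genes whose window held no such match, 16 were lower (median -0.87). The related second element, ATTGG, any base and CCACG, matched in Dnajb11 and Herpud1 and in 12 of all 32851 promoters. The letters TGACGTGG were in no window of the 33 genes and in 0.676% of all promoters. A match describes letters and does not show binding.

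Disulfide bond formation held both extremes. Of 10 genes 8 were lower in KPC-OG (median log2 fold change -0.71). P4hb, which encodes protein disulfide isomerase (chr11:120560298-120573253), had 517, 383, 622 and 368 CPM in KPC-OG, against 1546, 1133, 1261 and 1311 CPM in KPC. The groups did not overlap, and P4hb fell by 1.47 ± 0.24 on the log2 scale (edgeR adjusted p = 0.00179). Erp44, a thiol-dependent retrieval factor (chr4:48193323-48279558), had 35.2, 33.6, 29.3 and 29.5 CPM in KPC-OG, against 59.8, 49.6, 49.4 and 50.3 CPM in KPC. It fell by 0.71 ± 0.12 (edgeR adjusted p = 0.00211). On TPM with a pseudocount of 1 and each library's median log2 value subtracted, it did not pass (adjusted p = 0.448, limma).

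The next 4 genes were chosen after their values were seen. Pdia2, a disulfide isomerase found mainly in pancreas (chr17:26195999-26199087), had 270.1, 198, 756 and 168 CPM in KPC-OG, against 2109, 1288, 1371 and 1545 CPM in KPC. Ero1lb, the pancreatic paralogue of the oxidase that recharges disulfide isomerases (chr13:12565874-12611396), had 81.0, 54.2, 188 and 50.3 CPM in KPC-OG, against 726, 401, 541 and 530.0 CPM in KPC. Both were below every KPC library in all 4 KPC-OG libraries, with library 3 nearest, and fell by 2.18 ± 0.47 and 2.56 ± 0.43 on the log2 scale (edgeR adjusted p = 0.00664 and 0.00231). Erp27, a redox-inactive isomerase family member (chr6:136907311-136922180), had 81.2, 51.2, 158 and 40.3 CPM in KPC-OG, against 364, 246, 250.5 and 272 CPM in KPC, a fall of 1.78 ± 0.40 (edgeR adjusted p = 0.00831). Pdia3, the isomerase that works with calnexin and calreticulin (chr2:121413775-121438687), had 141, 113, 80.3 and 146 CPM in KPC-OG, against 82.5, 86.0, 74.0 and 92.2 CPM in KPC. Library 3 lay within the KPC range and the other 3 above it, and the log2 fold change of 0.52 ± 0.19 did not pass (edgeR adjusted p = 0.0577). Over the fits that left out 1 library, the edgeR adjusted p of Pdia3 ran from 0.00410, without KPC-OG library 3, to 0.155.

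The isomerase Pdia6 (-0.71 ± 0.16), the oxidase Ero1l (-0.70 ± 0.15) and the stress-induced Creld2 (-0.63 ± 0.20) were also lower, and the isomerase Pdia4 (0.14 ± 0.22) did not pass. Creld2 missed the threshold in 4 of the 8 fits that left out 1 library (edgeR adjusted p of up to 0.0882). Ratios within a library set related genes side by side on TPM. The pairs, here and in the other steps, were chosen by hand, and overlap was not counted over other gene pairs. The ratio of Ero1lb to Ero1l, the widely expressed oxidase, was 5.51, 4.83, 17.5 and 4.02 in KPC-OG, against 32.0, 21.9, 32.0 and 24.0 in KPC. The ratio of Pdia2 to P4hb was 0.512, 0.480, 1.22 and 0.392 in KPC-OG, against 1.56, 1.29, 1.26 and 1.43 in KPC. Neither overlapped, and library 3 stood closest to KPC in both. By TPM, Pdia2 was the most abundant of the 40 genes in KPC (771 ± 81 TPM, SD, n = 4) and P4hb the most abundant in KPC-OG (741 ± 114 TPM, SD, n = 4).

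**Figure D2:**
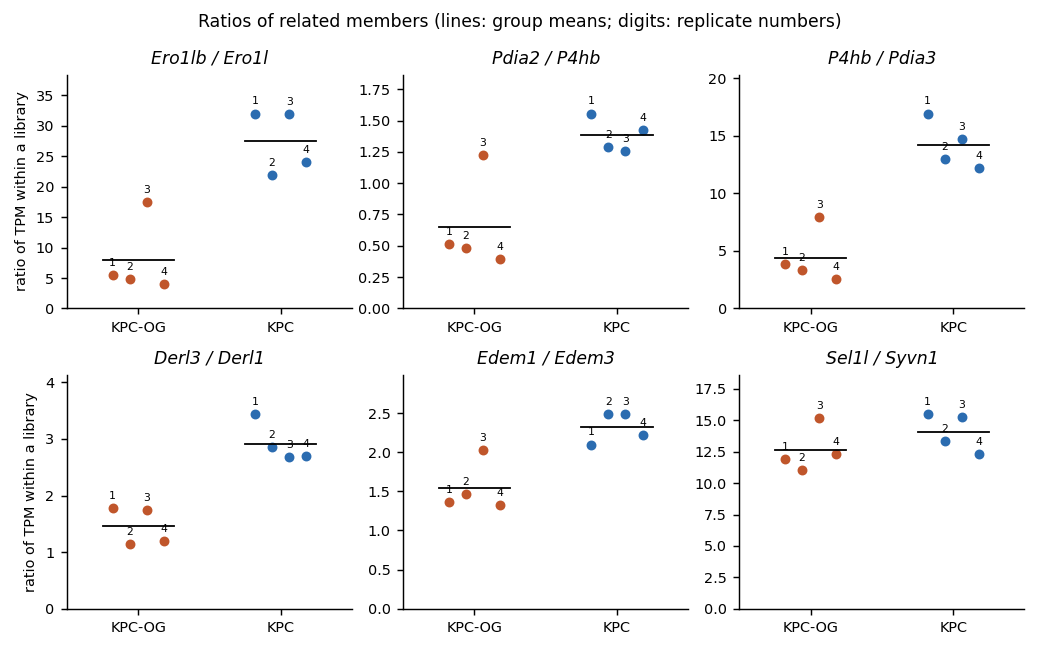
Ratio of TPM within each library (y axis) for Ero1lb to Ero1l, Pdia2 to P4hb, P4hb to Pdia3, Derl3 to Derl1, Edem1 to Edem3 and Sel1l to Syvn1, KPC-OG left of KPC, with lines at group means and replicate numbers beside the points. Sel1l to Syvn1 overlaps between genotypes (means of 12.6 in KPC-OG and 14.1 in KPC), and the other pairs plotted do not.

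Degradation genes remove chains that fail to fold, and 7 of 9 were lower in KPC-OG (median log2 fold change -1.41). Edem2, which trims mannose from such glycoproteins (chr2:155701677-155729475), had 73.9, 48.2, 99.7 and 47.8 CPM in KPC-OG, against 339, 197, 198 and 255 CPM in KPC. Edem3, its paralogue (chr1:151755371-151822051), had 65.4, 48.0, 74.3 and 44.3 CPM in KPC-OG, against 198, 120.4, 137 and 162 CPM in KPC. Both were lower in every KPC-OG library and fell by 1.88 ± 0.28 and 1.41 ± 0.22 on the log2 scale (edgeR adjusted p = 0.00135 and 0.00137). Sel1l, the adaptor of the Hrd1 ligase and the most abundant gene of the step per length (chr12:91806043-91849157), had 454, 269, 658 and 272 CPM in KPC-OG, against 1469, 967, 1183 and 1288 CPM in KPC. It fell by 1.57 ± 0.32 (edgeR adjusted p = 0.00466), without overlap.

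Edem1, the founding paralogue (-1.93 ± 0.29), the derlin gene Derl3, whose product helps move chains back to the cytosol (-1.43 ± 0.22), and the Hrd1 ligase gene Syvn1 (-1.14 ± 0.19) were lower, as was the derlin gene Derl1 (-0.43 ± 0.13), whose call did not hold in 5 of the 8 fits that left out 1 library. Herpud1, a scaffold of the ligase (-0.88 ± 0.36), and Derl2 (-0.29 ± 0.17) did not pass. Without KPC-OG library 3, Herpud1 passed (-1.25, edgeR adjusted p = 0.00815). It did not pass in the fits that left out any other library (edgeR adjusted p of up to 0.192). The ratio of Derl3 to Derl1 within a library was 1.14 to 1.78 in KPC-OG and 2.68 to 3.44 in KPC. The ratio of Edem1 to Edem3 was 1.33 to 2.03 in KPC-OG and 2.10 to 2.49 in KPC. Neither overlapped.

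On the TMM scale all 3 sensors were lower in KPC-OG (median log2 fold change -1.07). With library sizes alone, Ern1 (0.92) and Eif2ak3 (0.65) were higher and Atf6 (0.31) did not pass. On that scale 91.7% of all tested genes were higher. The values that follow are on the TMM scale. Atf6, whose cleaved form activates chaperone genes (chr1:170704674-170867771), had 35.5, 29.3, 51.0 and 28.2 CPM in KPC-OG, against 126, 71.4, 82.5 and 92.5 CPM in KPC. Eif2ak3, which encodes PERK, the kinase that slows translation (chr6:70844515-70905245), had 70.9, 44.8, 62.5 and 49.6 CPM in KPC-OG, against 149, 106, 103 and 118 CPM in KPC. Ern1, which encodes IRE1, the nuclease that splices Xbp1 (chr11:106394650-106487852), had 36.8, 27.7, 46.6 and 28.6 CPM in KPC-OG, against 63.4, 47.7, 74.6 and 52.0 CPM in KPC. The genotypes did not overlap for any of them, and library 3 was the highest KPC-OG library for Atf6 and Ern1. The log2 fold changes were -1.37 ± 0.23, -1.07 ± 0.19 and -0.77 ± 0.20 (edgeR adjusted p = 0.00207, 0.00235 and 0.0149).

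**Figure D3:**
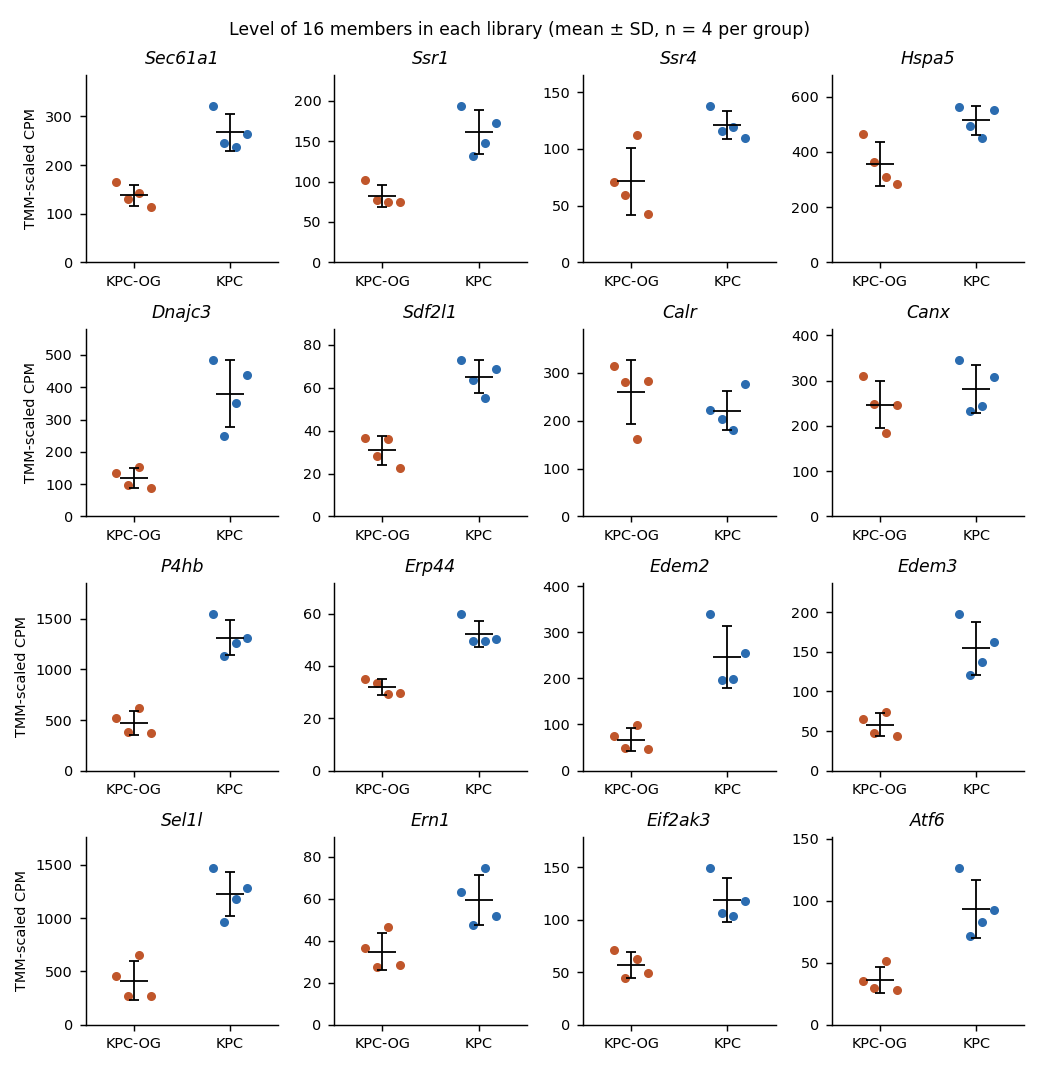
TMM-scaled CPM (y axis, from 0) of 16 genes in each library, KPC-OG left of KPC, with mean and SD (n = 4 per genotype). Calr and Canx overlap between genotypes, and Atf6, Edem2, Dnajc3 and P4hb do not.

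**Figure D4:**
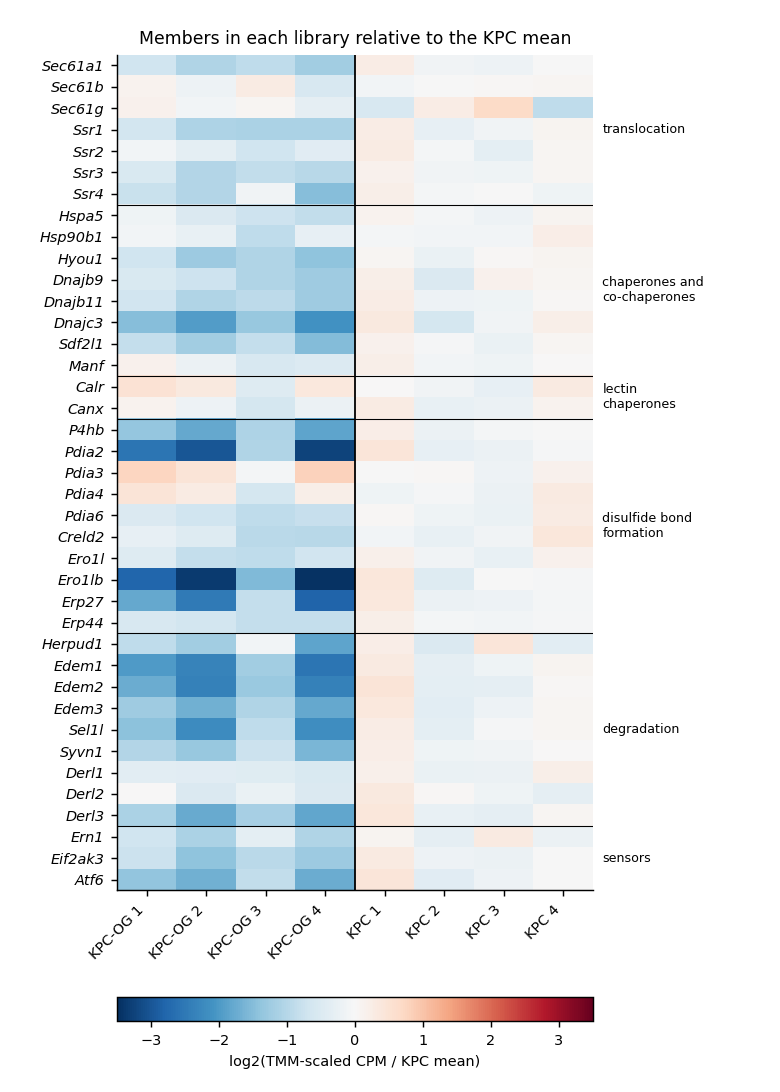
Log2 of TMM-scaled CPM over the KPC mean for the 39 tested genes (rows, by step) in each library (columns, KPC-OG left of KPC). Ero1lb and Pdia2 are the darkest blue rows, and KPC-OG 3 is paler than the other KPC-OG libraries for them.

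The same genes were then summed. Together they held 0.925%, 0.860%, 0.611% and 0.821% of gene-level reads in KPC-OG, against 0.588%, 0.556%, 0.499% and 0.591% in KPC, without overlap. Shares of this kind are not TMM-scaled. By library sizes alone 91.7% of all tested genes were higher in KPC-OG, so a higher share does not set these genes apart. With Lars2 left out of the totals the shares were 0.654% to 0.961% in KPC-OG and 0.702% to 0.762% in KPC, and they overlapped. Set against the acinar enzymes, whose share of reads was 16.9% to 31.4% in KPC-OG and 26.7% to 38.5% in KPC, they held 3.54, 4.05, 1.95 and 4.87 reads per 100 acinar enzyme reads in KPC-OG, against 1.53, 1.75, 1.87 and 1.71 in KPC. Within its genotype, KPC-OG library 3 had the largest acinar share and the smallest of these ratios. The ratio divides by acinar enzyme reads, so the 2 values are linked by construction. The summed TMM-scaled CPM pointed the other way, with 3622 to 5366 in KPC-OG and 8518 to 12172 in KPC. The sum is a description and was not tested.

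**Figure D5:**
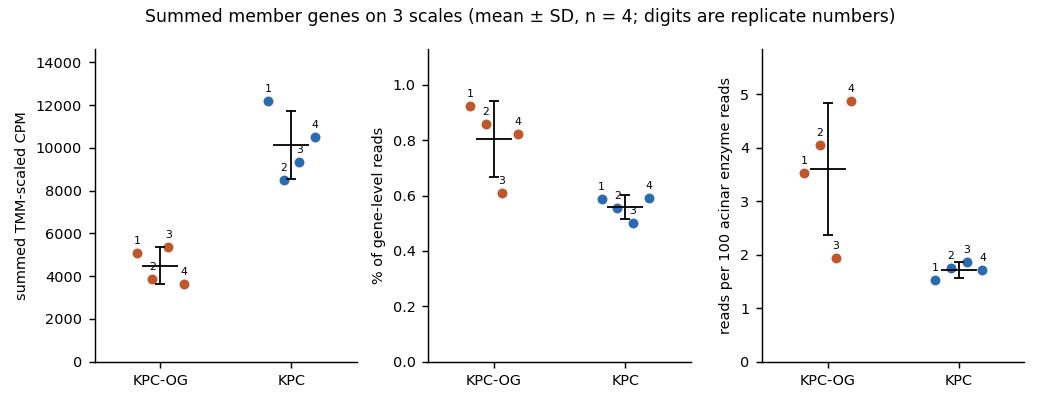
Summed counts of the listed genes in each library on 3 scales (y axes from 0), KPC-OG left of KPC, with mean and SD (n = 4) and replicate numbers. TMM-scaled CPM are lower in KPC-OG, while the share of gene-level reads and the number per 100 acinar enzyme reads are higher. The share is not TMM-scaled, and by library sizes alone 91.7% of all tested genes were higher in KPC-OG.

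The steps differed in these shares, which are not TMM-scaled. With library sizes alone, 91.7% of all tested genes were higher in KPC-OG. Translocation genes held 0.0647% to 0.113% of reads in KPC-OG and 0.0442% to 0.0542% in KPC, without overlap. Sensors held 0.0182% to 0.0261% in KPC-OG and 0.0139% to 0.0163% in KPC, also without overlap. With Lars2 left out of the totals, the sensor shares overlapped. Chaperones and co-chaperones held 0.108% to 0.239% in KPC-OG and 0.0897% to 0.112% in KPC. Their shares overlapped with and without Lars2 in the totals. Disulfide bond genes held 0.232% to 0.264% in KPC-OG and 0.206% to 0.253% in KPC, and degradation genes 0.131% to 0.168% in KPC-OG and 0.123% to 0.144% in KPC, and both overlapped. With Lars2 left out of the totals, disulfide bond genes held less in KPC-OG (0.249% to 0.275%) than in KPC (0.291% to 0.328%), without overlap. A few abundant genes dominated this sum. In KPC library 1, Pdia2, P4hb and Ero1lb had 11043, 8095 and 3802 estimated reads, and the next gene, Erp27, had 1904. With library sizes alone, Pdia2 and Ero1lb were lower in KPC-OG, P4hb and Erp27 did not pass, and the other genes of the step were higher. By TMM-scaled CPM, 15 of the 39 genes were highest and 10 lowest in KPC-OG library 3 among the KPC-OG libraries. The same counts were not made over all tested genes, so these numbers are a description only. By TPM, 16 genes lay above KPC in all 4 KPC-OG libraries, 2 (Ero1lb and Edem1) lay below and 21 overlapped, while 80.2% of all tested genes lay above and 0.792% below. Without KPC-OG library 3, 29 lay above, 4 (Pdia2, Ero1lb, Erp27 and Edem1) lay below and 6 overlapped, against 90.6% of all tested genes above and 1.22% below.

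A further 116 genes of the same pathway gave the wider picture: of 115 tested, 63 were lower in KPC-OG, 12 were higher and 40 did not pass (median log2 fold change -0.56). The shares among all tested genes were 16.6% lower and 17.4% higher. Of targeting, translocation and signal cleavage genes 12 of 17 were lower and 2 higher, led by Spcs3, a signal peptidase subunit (-1.34 ± 0.16), and by Srp14 of the signal recognition particle (0.58 ± 0.12). Of glycosylation genes 6 of 16 were lower and 2 higher, led by Magt1 (-1.63 ± 0.20) and Tusc3 (1.09 ± 0.17), the alternative oxidoreductase subunits of the oligosaccharyltransferase. Of other folding enzymes 9 of 23 were lower and 5 higher, led by Txndc11 (-1.14 ± 0.16) and Agr2 (2.16 ± 0.39), an isomerase of mucin-producing epithelium. Agr2 had 70.6, 59.5, 18.8 and 71.5 CPM in KPC-OG, against 12.6, 13.3, 9.55 and 13.5 CPM in KPC, with library 3 again the nearest to KPC.

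Of other degradation genes 13 of 17 were lower and none higher at the adjusted threshold or at an unadjusted p under 0.05, led by the lectin gene Erlec1 (-1.11 ± 0.16). Of genes for export 14 of 23 were lower and none higher, with 2 (Sec23a and Kdelr1) higher at an unadjusted p under 0.05, led by the COPII coat gene Sec23b (-1.10 ± 0.12). Of 19 other genes for sensors, their transcription factors and their outputs, 9 were lower and 3 higher. These were led by Ppp1r15b, a phosphatase subunit that reverses the PERK signal (-1.22 ± 0.21), and by Creb3l3, a membrane-bound transcription factor (1.70 ± 0.51). Among the transcription factors, Xbp1 (-0.95 ± 0.19) and Atf4 (-0.94 ± 0.18) were lower, and Bhlha15, which encodes the acinar factor Mist1, fell by 2.06 ± 0.44. Ddit3, which encodes CHOP, had 6.42, 6.32, 3.93 and 5.21 CPM in KPC-OG, against 6.88, 1.88, 6.10 and 4.39 CPM in KPC. The groups overlapped and it did not pass (0.21 ± 0.34, edgeR adjusted p = 0.670). The other genes higher in KPC-OG, named after their values were seen, were Sec11a (0.70 ± 0.20), Ost4 (0.72 ± 0.14), Txndc12 (0.57 ± 0.18), Fkbp7 (1.64 ± 0.39), Fkbp14 (1.07 ± 0.30), Sdf2 (0.43 ± 0.12), Atf3 (1.32 ± 0.45) and Ern2, the epithelial paralogue of Ern1 (2.22 ± 0.65). With library sizes alone, none of the 115 was lower and 102 were higher in KPC-OG, against 0.694% lower and 91.7% higher among all tested genes.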

How the data were processed

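Per the labels' protocols, ribosome-depleted total RNA of 8 mouse pancreas samples was sequenced. Per the file headers, the authors ran Sailfish 0.6.3 (k-mer length 20, 1000 iterations, bias corrected) on mouse cDNA of Ensembl release 76. The deposited files give estimated counts and TPM per transcript. STAR 2.0.4b, bcl2fastq, limma and edgeR stand in the submitters' processing notes, with no role given. Of 86127 transcripts, 83827 matched GENCODE M21 (GRCm38). The other 2300, with 1.45% to 3.05% of reads in KPC-OG and 3.93% to 4.23% in KPC, were left out. The sources used here do not state strand use, so overlapping and antisense genes cannot be told apart, and near-identical genes share reads by estimation.

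Estimated counts were summed per gene, rounded and tested with edgeR 4.0.16 in R 4.3.3 (quasi-likelihood, robust, TMM, filterByExpr, Benjamini-Hochberg threshold 0.05). limma 3.58.1 and DESeq2 1.42.0 served as alternatives. Fits on TPM used limma on log2 values with each library's median subtracted. SE is the log2 fold change over the root of F. The pipeline was tested on simulated data. No 2 libraries of a genotype agreed within counting noise (chi-square per degree of freedom at least 14.7). Counts per library limit precision, and no molecular identifiers were used.

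Members and gene lists were chosen with earlier results of these data known. Values in every library are given, per step, for the 2 genes with the smallest adjusted p, the gene with the highest mean TPM, any gene called higher, Hspa5 and the 3 sensors. Of other pathway genes, the passing gene with the smallest adjusted p in each direction and role is named, with Xbp1, Atf4, Ddit3 and Bhlha15. Clgn was not tested. Promoter sequences are from RefSeq (GRCm38.p6).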

Additional observations from a re-analysis of the deposited data

Results flagged for a closer look

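In 6 of 134 groups of 4 libraries examined, 1 library lay far from the other 3 (Dixon's 95% criterion), and chance flags about 1 in 20 groups. Ssr1 was at 102 CPM in KPC-OG library 1, against 74.8 to 76.8 CPM in the other KPC-OG libraries. Hsp90b1 was at 423 CPM in KPC library 4, against 337 to 346 CPM in the others of that genotype. Hyou1 was at 258 CPM in KPC library 2, against 314 to 326 CPM in the others. Erp44 was at 59.8 CPM in KPC library 1, against 49.4 to 50.3 CPM in the others. Summed chaperones per 100 acinar enzyme reads were 0.251 in KPC library 1, against 0.322 to 0.336 in the others. The lectin chaperones held 0.0394% of gene-level reads in KPC-OG library 3, against 0.114% to 0.120% in the other KPC-OG libraries. That library also had the highest acinar enzyme share of its genotype, 31.4%, and the relation between the 2 values was not tested.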

How the results depend on the processing

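Of the 27 genes lower in KPC-OG, 21 passed in the same direction in all 17 alternatives other than library sizes alone; uncalled Hspa5, Herpud1, Pdia3 and Ssr2 passed in 1 to 5, and Ssr4, Derl1, Creld2, Erp44, Pdia6 and Ero1l missed the threshold in 1 to 8 of them. The count of lower genes was 23 to 30 in these alternatives and 2 with library sizes alone, which gave 28 higher. One gene, Pdia3, was higher with DESeq2, TPM with a pseudocount of 1, the replicate block and an unadjusted p, giving a count of 1 against 0; leaving out 1 library gave 0 to 1. Among other pathway genes, library sizes alone gave 0 lower and 102 higher, on a scale where 91.7% of all tested genes were higher. Re-centring library sizes on the median gene gave 3 higher, limma-voom 6, and leaving out 1 library 6 to 16. The cause was not tested. Leaving Lars2 out of the total cut the log2 ratio of the summed share to 0.21, against 0.53. For comparison, the median gene stood 1.82 higher in KPC-OG on the log2 scale when library sizes alone were used.

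Small fold changes of uncalled genes changed sign. The values on TPM given next come from fits with each library's median log2 value subtracted. On plain TPM, Sec61b, Sec61g and Canx lay above KPC in all 4 KPC-OG libraries, as did 80.2% of all tested genes. Sec61b was 0.062 on TPM with a pseudocount of 1, and -0.17 to 0.086 without 1 library. Sec61g was 0.029 with no filter, 0.092 with limma-voom, 0.13 and 0.27 on TPM with pseudocounts of 1 and 0.1, 0.12 with protein-coding transcripts, 0.054 with the replicate block, and -0.23 to 0.27 without 1 library. Canx was 0.080 on TPM with a pseudocount of 1.

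Libraries with the same number correlated in their deviations by 0.262, 0.265, 0.031 and 0.034, and those with different numbers by -0.315 to 0.187. These values do not settle whether the numbers pair the libraries, and the main fit used no pairing. The replicate block gave 30 lower and 1 higher. The unadjusted p and the sums without KPC-OG library 3 were added after the data were seen.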
